A study of Mus musculus with 12 samples.

Results

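The genes described here encode 10 redox and antioxidant enzymes, Txn1, Txnrd1, Prdx1, Gclc, Gclm, Gsr, Gpx1, Sod1, Sod2 and Cat. They were picked by symbol, with earlier results of these data known. All 10 were among the 11706 genes of the deposited expression table, and all 10 were among the 11142 genes that averaged at least 1 RPKM (a read level corrected for gene length and library size) over 11 libraries and were tested. The RNA came from natural killer (NK) cells of C57BL6 mouse spleen, expanded for 6 days in IL-15 (10 ng/mL), purified by magnetic sorting and, per the labels, given the activating cytokines IL-2 (330 U/mL) and IL-12 (10 ng/mL) for 18 h. The drug experiment held cells of genotype WT given TEPP-46, a small-molecule activator of pyruvate kinase M2 (PKM2), or vehicle, with 3 libraries each. The genotype experiment held PKM2 KO cells (NCR1Cre het PKM2fl/fl, 2 libraries with a matched column of the 3 labelled) and PKM2 WT cells (NCR1Cre het, 3 libraries). NCR1Cre is a recombinase driven by the NK cell gene Ncr1, so both genotype groups carry it, while the drug groups are labelled WT only. For TEPP-46 the sources state both 50 µM and 50 mM, and for the vehicle both 0.1% DMSO and PBS.

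Libraries of the genotype experiment went against part of their labels. Ifng, the interferon gamma gene that IL-12 is known to induce in NK cells, ranged over 797 to 908 RPKM with TEPP-46 and 1014 to 1083 RPKM with vehicle, against 18.8 to 24.3 RPKM in the libraries labelled PKM2 KO and 22.7 to 24.2 RPKM in those labelled PKM2 WT. Pkm, the targeted gene, was at 76.7 and 78.4 RPKM in the libraries labelled PKM2 KO and at 221, 198 and 199 RPKM in those labelled PKM2 WT, a ratio of means of 0.377. The authors' deposited table gives a mean ratio for Pkm of 0.539 between knockout and wild-type cells with IL-2/12 and of 0.396 between those groups marked US. It also gives Pkm a mean ratio of 5.78 between wild-type cells with IL-2/12 and those marked US. Across the 2 experiments here, the ratio of the vehicle mean to the PKM2 WT mean of Pkm was 5.27. The table does not spell out US, and whether the genotype libraries hold cells given IL-2/12, as labelled, is not settled by these values. The genotype groups are therefore called by their labels only, and every direction drawn from them holds for libraries with low Ifng. The 10 listed NK cell markers were expressed in all 11 libraries, and their levels did not all differ in the same direction between experiments. Ncr1 ranged over 90.5 to 134 RPKM in the drug libraries and 232 to 258 RPKM in the genotype libraries, and Klrb1c over 39.5 to 54.95 RPKM and 369 to 407 RPKM in the same order. Eomes, Itga2, Klra8 and Cd244 were also lower in every drug library than in any genotype library. Klrk1, Gzma and Tbx21 overlapped between the experiments. Prf1 ran the other way, at 651 to 772 RPKM in the drug libraries against 193 to 233 RPKM in the genotype libraries. Summed RPKM of the 4 measured macrophage and dendritic cell markers of 12 listed ran from 22.6 to 28.9 in the drug libraries, against 267 to 299 in the genotype libraries. Nearly all of that gap was Itgax, which NK cells can also express, at 9.80 to 16.3 RPKM in the drug libraries against 239 to 278 RPKM in the genotype libraries. H2-Ab1 overlapped, at 1.63 to 4.21 RPKM against 0.82 to 3.03 RPKM, and Csf1r, Adgre1 and Flt3 were not analysed here. In RNA of whole cultures, fewer cells of a type and less RNA per cell cannot be told apart.

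These enzymes form linked relays that remove superoxide and hydrogen peroxide. Superoxide dismutases turn superoxide into hydrogen peroxide, which catalase, glutathione peroxidases and peroxiredoxins then reduce. Peroxiredoxins are recharged by thioredoxin and glutathione peroxidases by glutathione, and the reductases Txnrd1 and Gsr restore both carriers with NADPH. Many of these genes are known targets of the transcription factor NRF2, which binds antioxidant response elements. Activated lymphocytes make reactive oxygen species as they raise their metabolism, and in tumour cells low PKM2 activity has been linked to a greater flow of glucose into NADPH production.

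Promoter sequence is shown for 6 of the genes because they hold the core of an antioxidant response element, in capitals, or had the largest increase or decrease between the experiments. The core searched was TGACNNNGC on both strands, in the 250 bases before each transcription start (RefSeq, GRCm38.p6). Of the 10 genes 8 had a window in the table, with 10 windows in all. A match was found in 4 of these 10 windows, those of Prdx1, Txnrd1, Gclm and Sod1, against 10.2% of all 32851 windows of that length. All 4 matches lay on the strand opposite the gene, so the capitals read as the reverse complement of the core. Prdx1 (chr4:116685349-116685598, plus strand) held it 133 to 125 bases before the start, and a match to TGANTCA, the letters of an AP-1 site found in 6.75% of windows, overlapped it at 131 to 125 bases. Another TGANTCA match in the Prdx1 window lay at 237 to 231 bases, apart from the core. Txnrd1 has 3 windows and only the one printed (chr10:82858956-82859205, plus strand) held a match, at 92 to 84 bases. In Gclm (chr3:122245307-122245556, plus strand) the match lay 134 to 126 bases before the start, and in Sod1 (chr16:90220512-90220761, plus strand) 56 to 48 bases. Txn1 (chr4:57956412-57956661, minus strand) and Cat (chr2:103485154-103485403, minus strand), the gene with the largest increase and the gene with the decrease among the 10 in vehicle against PKM2 WT, held no such letters in this window. A match is a description of letters and not a measured binding site. The sequences run 5′ to 3′ on the strand of the gene.
Prdx1: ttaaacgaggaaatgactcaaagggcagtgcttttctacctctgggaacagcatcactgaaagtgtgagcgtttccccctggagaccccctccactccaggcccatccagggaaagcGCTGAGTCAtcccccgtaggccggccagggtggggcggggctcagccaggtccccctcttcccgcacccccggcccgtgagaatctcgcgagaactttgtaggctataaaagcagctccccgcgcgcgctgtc
Txnrd1: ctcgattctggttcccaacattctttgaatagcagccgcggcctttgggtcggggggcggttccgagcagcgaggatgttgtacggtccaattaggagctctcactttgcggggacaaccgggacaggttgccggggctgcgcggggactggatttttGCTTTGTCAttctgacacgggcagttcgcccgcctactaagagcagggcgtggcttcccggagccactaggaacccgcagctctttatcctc
Gclm: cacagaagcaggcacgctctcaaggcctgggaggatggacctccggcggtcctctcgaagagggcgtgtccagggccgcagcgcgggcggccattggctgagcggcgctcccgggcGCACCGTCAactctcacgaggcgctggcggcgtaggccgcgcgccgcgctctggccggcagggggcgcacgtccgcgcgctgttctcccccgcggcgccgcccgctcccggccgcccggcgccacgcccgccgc
Sod1: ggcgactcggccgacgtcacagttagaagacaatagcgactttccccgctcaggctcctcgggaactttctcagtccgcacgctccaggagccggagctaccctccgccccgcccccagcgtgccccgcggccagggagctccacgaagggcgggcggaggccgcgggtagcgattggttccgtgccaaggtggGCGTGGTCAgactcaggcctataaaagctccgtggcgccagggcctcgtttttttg
Txn1: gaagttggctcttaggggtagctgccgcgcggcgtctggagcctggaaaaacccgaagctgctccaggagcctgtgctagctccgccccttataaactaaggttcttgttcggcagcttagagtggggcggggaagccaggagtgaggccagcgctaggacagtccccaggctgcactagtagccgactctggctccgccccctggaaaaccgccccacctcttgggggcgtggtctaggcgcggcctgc
Cat: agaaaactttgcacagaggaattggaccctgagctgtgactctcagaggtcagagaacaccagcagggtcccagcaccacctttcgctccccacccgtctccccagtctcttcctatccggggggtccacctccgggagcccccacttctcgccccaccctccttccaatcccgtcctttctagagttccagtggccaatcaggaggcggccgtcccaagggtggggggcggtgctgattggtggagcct

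All 10 genes were expressed in every library, at levels that differed widely between members. Sod1, the cytosolic copper-zinc superoxide dismutase, was the highest member in all 4 groups. It averaged 393 ± 13.1 RPKM with TEPP-46 (SD, n = 3), 382 ± 8.79 RPKM with vehicle (SD, n = 3), 273 ± 5.61 RPKM in PKM2 KO (SD, n = 2) and 283 ± 8.96 RPKM in PKM2 WT (SD, n = 3). Prdx1, which reduces hydrogen peroxide, came second in all 4 groups, and no library's range for it met that of Sod1 or of the third-ranked gene. In the drug experiment the order below was Txn1, Gpx1, Txnrd1, Gsr, Cat, Sod2, Gclc and Gclm, whereas in the genotype experiment Gpx1 stood above Txn1, Cat above Gsr and Gclc above Sod2. Neighbours whose library ranges overlapped were Gpx1 and Txnrd1 with TEPP-46, Sod2 and Gclc in both drug groups, Gclc and Gclm with vehicle, and Gpx1 and Txn1, Gclc and Sod2, and Sod2 and Gclm in PKM2 WT. Averaged over the 11 libraries, Sod1 lay at percentile 97.4 of tested genes by RPKM, Prdx1 at 96.1 and Txn1 at 95.1, while Gclm lay at percentile 34.5, Gclc at 45.1 and Sod2 at 47.8. RPKM is scaled per length, so the order of genes depends on the gene lengths the authors used, which are not given here. Annotated exonic lengths of the 10 ran from 1051 bases for Txn1 to 10008 bases for Sod2.

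**Figure D1:**
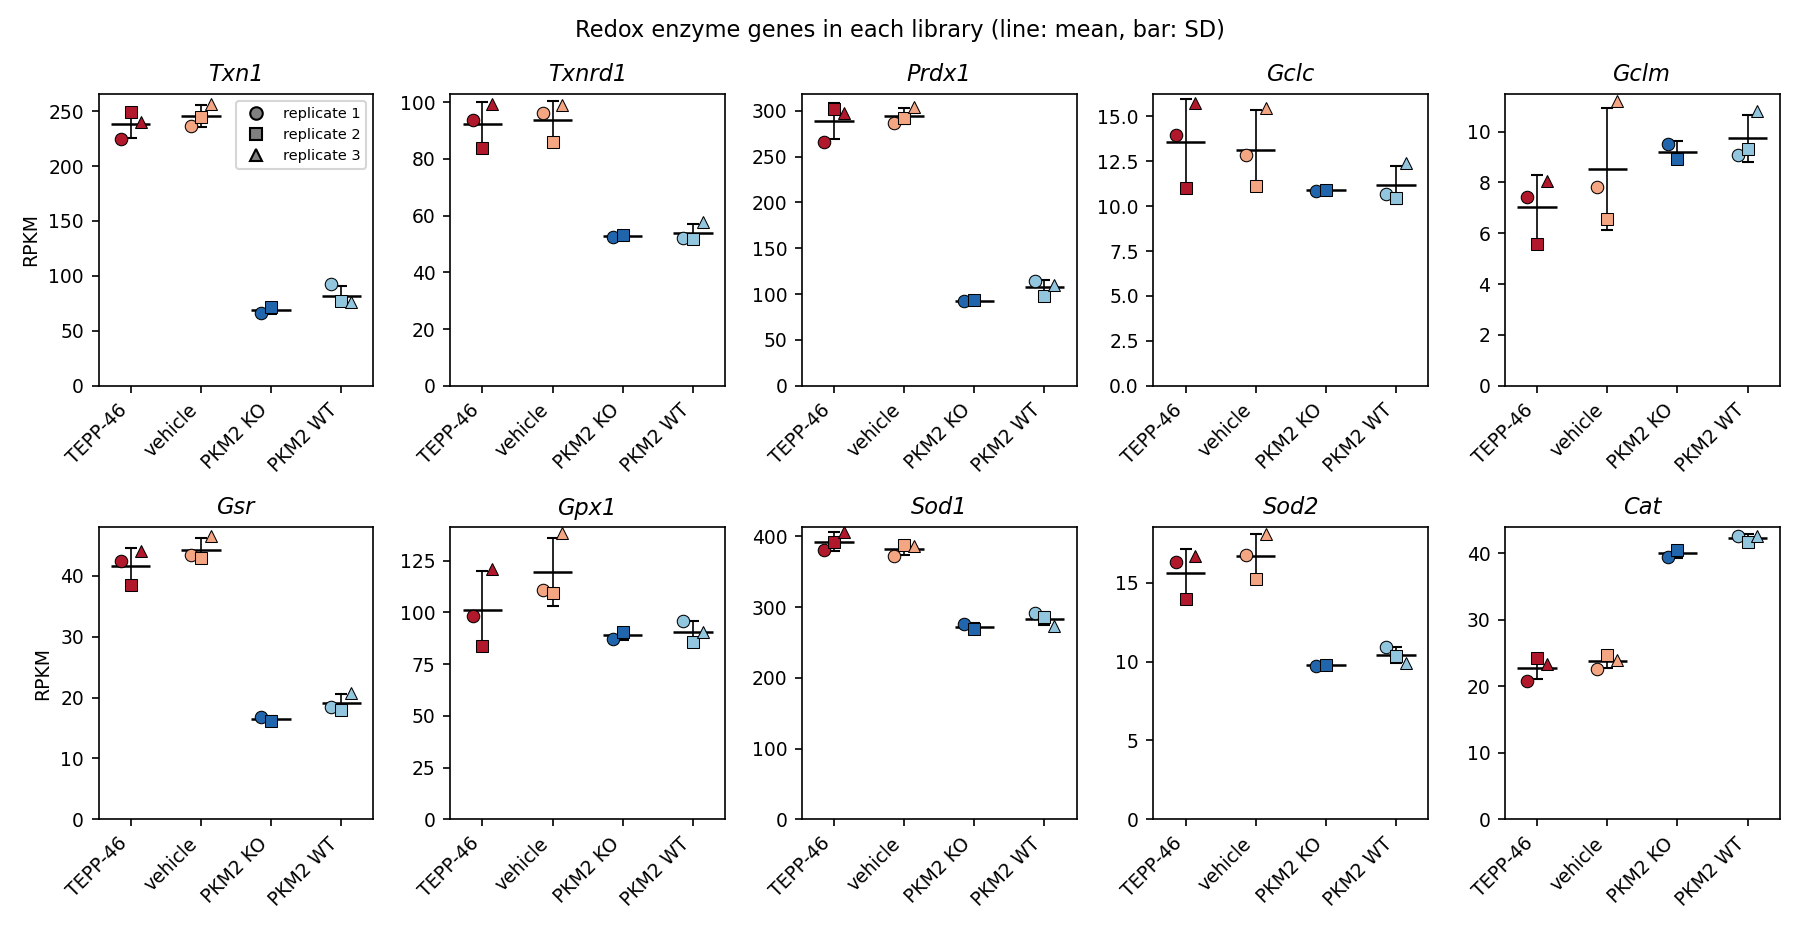
Expression (RPKM, vertical axis from 0) of the 10 redox enzyme genes in each library of the 4 groups; points are libraries, marked by replicate number, with the group mean (line) and SD (bar). Txn1 sits between 225 and 256 RPKM in the 6 drug libraries and between 66.6 and 92.4 RPKM in the 5 genotype libraries, and Cat runs the other way.

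The question of the drug experiment was which transcripts respond to an activator of PKM2. None of the 10 genes passed the threshold between TEPP-46 and vehicle, and every one had overlapping libraries. This does not show that they were unchanged, since limma intervals in log2 reached -0.755 for Gclm and -0.643 for Gpx1. Between same-numbered libraries the ratio of TEPP-46 to vehicle for Gpx1 was 0.888, 0.768 and 0.875. Gclm, Gsr, Sod2 and Cat were also lower in all 3 such pairs, and Sod1 was higher in all 3. Txn1, Txnrd1, Prdx1 and Gclc were mixed. The share of all tested genes with the same direction in all 3 pairs is not given here, so these directions are a description only. With replicate number as a block, 0 of the 10 passed. In limma 0 of 10 passed an adjusted p of 0.05, where the background over all tested genes was 0% called, and 0 of the 10 had an unadjusted p under 0.05, against 9.43% of all tested genes (1051). The groups of 15.3% of all tested genes did not overlap.

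The 3 genes of the thioredoxin relay had overlapping levels. Txn1, the small protein that reduces disulfides in other proteins, was at 225, 250 and 240 RPKM with TEPP-46, against 237, 244 and 256 RPKM with vehicle. Its log2 fold change was -0.047 with a 95% interval of -0.19 to 0.10. Txnrd1, the selenoprotein that recharges thioredoxin from NADPH, was at 93.7, 83.8 and 99.3 RPKM with TEPP-46, against 96.1, 85.8 and 98.9 RPKM with vehicle. The TEPP-46 and vehicle libraries of Txnrd1 covered nearly the same range, and the 95% interval of its log2 fold change ran from -0.23 to 0.19. Prdx1 was at 266, 302 and 298 RPKM with TEPP-46, against 287, 293 and 304 RPKM with vehicle, and the interval ran from -0.19 to 0.12. All 3 intervals held 0.

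Of the glutathione genes Gclm, Gclc and Gpx1 had the widest intervals of the 10, and Gsr a narrower one. Gclm, the modifier subunit of glutamate-cysteine ligase, which makes the precursor of glutathione, was at 7.43, 5.59 and 8.06 RPKM with TEPP-46, against 7.82, 6.57 and 11.2 RPKM with vehicle. The highest value was vehicle replicate 3, and the groups overlapped. Its log2 fold change was -0.23 with a 95% interval of -0.76 to 0.29 (limma adjusted p = 0.755), and it was -0.097 without TEPP-46 replicate 2, -0.38 without vehicle replicate 2 and -0.039 without vehicle replicate 3. Gclc, the catalytic subunit of that enzyme, was at 13.95, 11.02 and 15.8 RPKM with TEPP-46, against 12.8, 11.1 and 15.5 RPKM with vehicle, and its interval of -0.37 to 0.45 crossed 0. Gpx1, a selenoprotein that reduces hydrogen peroxide with glutathione, was at 98.2, 83.9 and 121 RPKM with TEPP-46, against 111, 109 and 138 RPKM with vehicle. Its log2 fold change was -0.25 with an interval of -0.64 to 0.15 (limma adjusted p = 0.669). With TEPP-46 replicate 2 left out the value was -0.12, with vehicle replicate 3 left out it was -0.14, and TEPP-46 replicate 3 left out gave -0.38. Gsr, glutathione reductase, was at 42.5, 38.5 and 44.0 RPKM with TEPP-46 against 43.4, 42.9 and 46.5 RPKM with vehicle, with an interval of -0.25 to 0.08.

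Among the enzymes that act on superoxide and peroxide directly, Sod1 was at 380, 391 and 406 RPKM with TEPP-46, against 372, 388 and 386 RPKM with vehicle. Its 95% interval of -0.073 to 0.15 in log2 was the narrowest of the 10. Sod2, the manganese enzyme of mitochondria, was at 16.3, 13.96 and 16.7 RPKM with TEPP-46, against 16.8, 15.2 and 18.1 RPKM with vehicle. Cat, the peroxisomal catalase, was at 20.8, 24.2 and 23.4 RPKM with TEPP-46, against 22.7, 24.8 and 24.0 RPKM with vehicle. Both genes had overlapping groups, with 95% intervals of -0.32 to 0.14 for Sod2 and -0.24 to 0.11 for Cat. The authors' deposited table for TEPP-46 listed 24 genes and 0 of the 10 were among them.

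The question of the genotype experiment was which transcripts depend on the enzyme itself. None of the 10 passed between PKM2 KO and PKM2 WT, although all 10 fold changes were below 0, those of Txnrd1 and Gpx1 only without rescaling or quantile normalization, that of Sod1 only without quantile normalization, those of Txnrd1, Gclc and Gclm only with PKM2 WT replicate 3 and that of Gpx1 only with PKM2 WT replicate 1. Their median was -0.075 in log2, against 0.000 over all tested genes. In limma 0 of 10 passed, against a background of 0.0987% called (11 genes, 2 higher and 9 lower), and 1 of the 10, Prdx1, had an unadjusted p under 0.05, against 7.94% of all tested genes (885). Both PKM2 KO libraries lay below all 3 PKM2 WT libraries for 5 of the 10 genes, against 14.5% of all tested genes, and the other 5 overlapped.

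Txn1, Prdx1 and Gsr had the lowest fold changes of the 10. Txn1 was at 66.6 and 71.7 RPKM in PKM2 KO, against 92.4, 77.6 and 76.4 RPKM in PKM2 WT. Both PKM2 KO values lay below all PKM2 WT values, and PKM2 WT replicate 1 stood above the other WT libraries. The log2 fold change of Txn1 was -0.24 (95% interval -0.50 to 0.019, limma adjusted p = 0.649). Prdx1 was at 92.8 and 93.1 RPKM in PKM2 KO, against 114, 98.2 and 110 RPKM in PKM2 WT. Its groups did not overlap, and its log2 fold change was -0.20 (95% interval -0.40 to -0.006, limma adjusted p = 0.627). Gsr was at 16.8 and 16.2 RPKM in PKM2 KO, against 18.5, 18.0 and 20.7 RPKM in PKM2 WT. Its groups did not overlap either, and its log2 fold change was -0.20 (95% interval -0.40 to 0.008, limma adjusted p = 0.639). The ratios of means were 0.842 for Txn1, 0.866 for Prdx1 and 0.864 for Gsr, and at 2 against 3 libraries none can be told from no change after adjustment over all genes.

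Sod2 and Cat also had lower values in both PKM2 KO libraries, by smaller amounts. Sod2 was at 9.73 and 9.81 RPKM in PKM2 KO, against 10.9, 10.4 and 9.94 RPKM in PKM2 WT. Cat was at 39.5 and 40.5 RPKM in PKM2 KO, against 42.7, 41.7 and 42.6 RPKM in PKM2 WT. The gaps between the groups were small, and the 95% intervals, -0.26 to 0.094 for Sod2 and -0.20 to 0.036 for Cat, crossed 0. Txnrd1 was at 52.5 and 53.1 RPKM in PKM2 KO, against 52.1, 51.7 and 57.7 RPKM in PKM2 WT. Sod1 was at 276 and 268 RPKM in PKM2 KO, against 291, 285 and 274 RPKM in PKM2 WT. Gpx1 was at 87.3 and 90.3 RPKM in PKM2 KO, against 95.7, 85.6 and 90.7 RPKM in PKM2 WT. These 3 genes overlapped between the groups, and their 95% intervals lay within -0.20 and 0.14. Gclc was at 10.9 RPKM in both PKM2 KO libraries, against 10.7, 10.4 and 12.4 RPKM in PKM2 WT, and Gclm at 9.50 and 8.92 RPKM in PKM2 KO, against 9.07, 9.33 and 10.8 RPKM in PKM2 WT. Both subunits overlapped, with PKM2 WT replicate 3 the highest library for each. Gclc lies 18.1 Mb and Gpx1 48.7 Mb from the targeted gene Pkm on chromosome 9, and neither passed the test.

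Summed RPKM of the 5 measured granulocyte, basophil and mast cell markers of 10 listed ran from 67.2 to 112 in PKM2 KO, against 120 to 297 in PKM2 WT, and the T cell gene Cd3g was at 14.6 and 6.43 RPKM in PKM2 KO against 84.8, 69.9 and 100.2 RPKM in PKM2 WT (log2 fold change -2.98, limma adjusted p = 0.228). The authors' deposited table gives Cd3g a mean ratio of 0.121 between knockout and wild-type cells with IL-2/12 and of 0.0896 between those groups marked US. Other measured T cell markers did not follow Cd3g. Cd3d, Trac and Trbc1 overlapped between the groups. Trbc2 was at 223 and 222 RPKM in PKM2 KO against 192, 204 and 220 RPKM in PKM2 WT. The part of granulocytes, basophils, mast cells and T cells in the values of the 10 genes was not tested. The authors' deposited table for the knockout listed 11 genes and 0 of the 10 were among them.

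**Figure D2:**
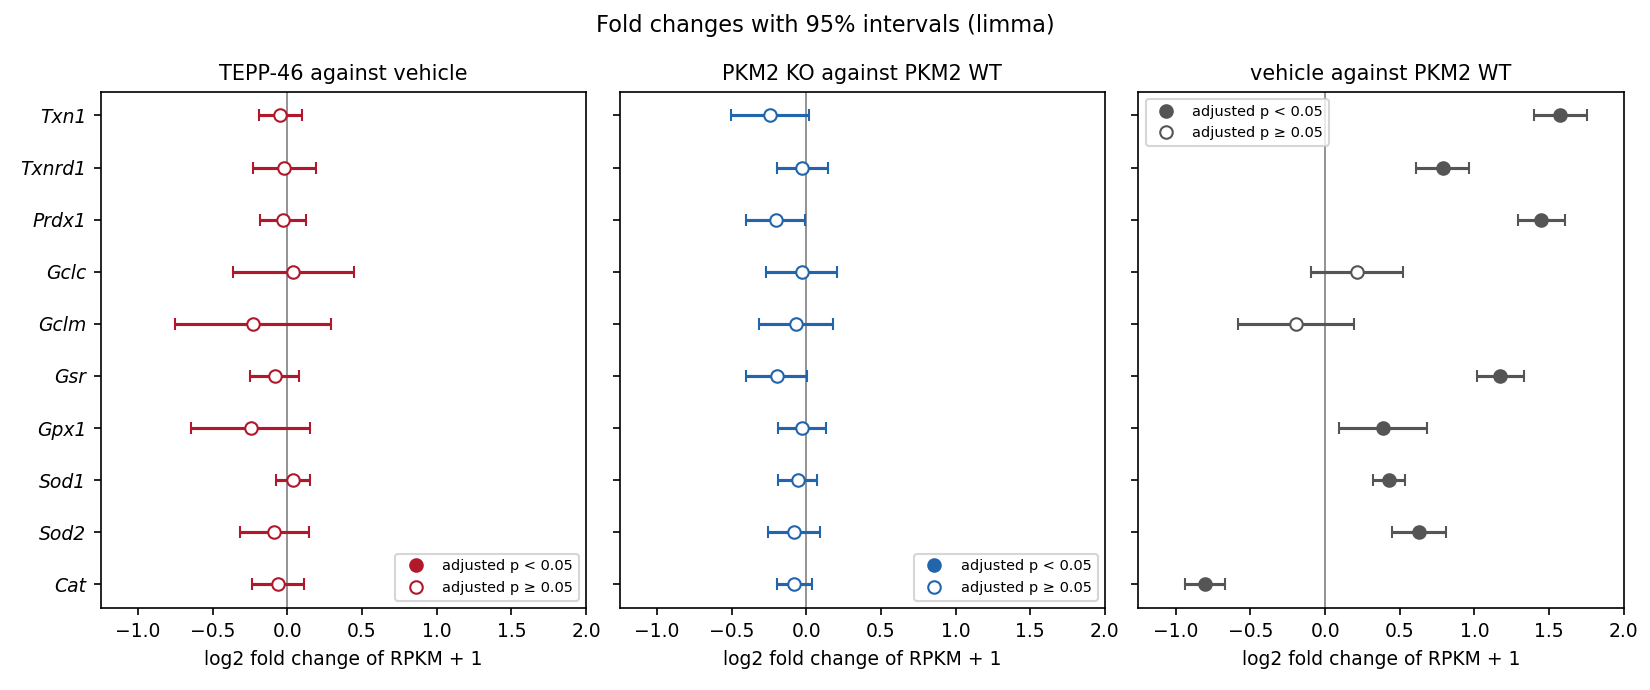
Log2 fold change of RPKM + 1 (horizontal axis) of the 10 genes in 3 comparisons, with 95% limma intervals; filled points have an adjusted p under 0.05. The TEPP-46 and PKM2 KO panels hold 0 filled points each and the vehicle against PKM2 WT panel holds 8.

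The knockout and drug effects were then set against each other, as the change in PKM2 KO minus the change with TEPP-46. In limma 0 of 10 genes passed for this difference, against a background of 0.0539% called (6 genes), and 0 of the 10 had an unadjusted p under 0.05, against 6.72% of all tested genes (749). The difference was 0.22 for Gpx1 (95% interval -0.22 to 0.66), -0.19 for Txn1 (-0.46 to 0.071) and -0.17 for Prdx1 (-0.41 to 0.062), all in log2. Leaving out 1 library moved the Gpx1 value to between 0.093 (TEPP-46 replicate 2 left out) and 0.36 (TEPP-46 replicate 3 left out), with 0.11 when vehicle replicate 3 was left out. For Txn1 it ran from -0.25 (without PKM2 KO replicate 2) to -0.11 (without PKM2 WT replicate 1). The 2 effects cannot be called alike from these intervals, which for Gclm ran from -0.42 to 0.74.

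For 9 of the 10 genes, Gclm being the exception, the estimated fold change between the vehicle and PKM2 WT libraries was larger in size than that of the drug or the knockout. The share of all tested genes with this order is not given here. Of all tested genes 75.3% were called between the experiments, against 0% with the drug and 0.0987% in the knockout. In vehicle against PKM2 WT the thioredoxin relay and glutathione reductase rose, superoxide dismutases rose by less, catalase fell, and the glutathione ligase subunits did not pass. In limma 8 of 10 genes passed (7 higher, 1 lower), where the background was 75.3% called, 38.6% higher and 36.7% lower. The share called is thus close to that of all tested genes, while the 7 higher stood against 38.6%. That background holds low genes, whereas all 10 averaged at least 5 RPKM. Of the 8733 genes at that level 3839 were higher and 2981 lower, with a median log2 fold change of 0.096. The groups of 7 genes did not overlap with vehicle higher, against 39.6% of all tested genes, and those of 1 gene with vehicle lower, against 37.9%. The median log2 fold change of the 10 was 0.53, against 0.004 over all tested genes. With quantile normalization 6 of the 10 were higher, and the medians were 0.351 and -0.016. Both groups are labelled with the same cytokines, but the low Ifng of the PKM2 WT libraries does not show a response to IL-12. Cytokine response, genotype and experiment therefore cannot be told apart in this comparison.

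Txn1 and Prdx1 had the largest increases. Txn1 averaged 246 ± 10.0 RPKM with vehicle and 82.2 ± 8.88 RPKM in PKM2 WT (SD, n = 3 each), a ratio of 2.99 with a log2 change of 1.57 (SE 0.079, limma adjusted p = 9.91e-08). Prdx1 averaged 294 ± 8.82 RPKM with vehicle and 107 ± 8.31 RPKM in PKM2 WT (SD, n = 3 each), a ratio of 2.74 with a log2 change of 1.45 (SE 0.070, limma adjusted p = 7.65e-08). Among all tested genes these log2 fold changes lay at percentile 94.5 for Txn1 and 93.1 for Prdx1. Txnrd1 also rose, at 93.6 ± 6.91 RPKM with vehicle and 53.8 ± 3.34 RPKM in PKM2 WT (SD, n = 3 each), a ratio of 1.74 with a log2 change of 0.79 (SE 0.079, limma adjusted p = 9.60e-06).

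Among the glutathione genes Gsr and Gpx1 passed, and the subunits of the ligase did not. Gsr averaged 44.2 ± 1.96 RPKM with vehicle and 19.1 ± 1.46 RPKM in PKM2 WT (SD, n = 3 each), a ratio of 2.32 with a log2 change of 1.17 (SE 0.070, limma adjusted p = 2.94e-07). Gclc averaged 13.1 ± 2.18 RPKM with vehicle and 11.2 ± 1.06 RPKM in PKM2 WT (SD, n = 3 each), and did not pass (log2 fold change 0.21, 95% interval -0.097 to 0.52, limma adjusted p = 0.189). Gclm averaged 8.54 ± 2.41 RPKM with vehicle and 9.73 ± 0.933 RPKM in PKM2 WT (SD, n = 3 each), and did not pass either (log2 fold change -0.20, 95% interval -0.58 to 0.19, limma adjusted p = 0.322). Without vehicle replicate 3, its highest library, Gclm was lower by -0.39 in log2 and passed (limma adjusted p = 0.0328). Gpx1 averaged 119 ± 16.5 RPKM with vehicle and 90.6 ± 5.04 RPKM in PKM2 WT (SD, n = 3 each), and passed with a log2 change of 0.39 (SE 0.13, limma adjusted p = 0.0218). The Gpx1 call was lost without PKM2 WT replicate 2 (0.35, adjusted p = 0.0706), PKM2 WT replicate 3 (0.39, adjusted p = 0.0504) or vehicle replicate 3 (0.28, adjusted p = 0.0846), and after quantile normalization (0.12, adjusted p = 0.406).

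Both superoxide dismutase genes rose and the catalase gene fell. Sod2 averaged 16.7 ± 1.43 RPKM with vehicle and 10.4 ± 0.491 RPKM in PKM2 WT (SD, n = 3 each), so that log2 expression differed by 0.63 (SE 0.080, limma adjusted p = 5.47e-05). Sod1 averaged 382 ± 8.79 RPKM with vehicle and 283 ± 8.96 RPKM in PKM2 WT (SD, n = 3 each), so that log2 expression differed by 0.43 (SE 0.049, limma adjusted p = 2.37e-05), which quantile normalization lowered to 0.17 with the call kept. Cat was the 1 member that fell. It was at 22.7, 24.8 and 24.0 RPKM with vehicle, against 42.7, 41.7 and 42.6 RPKM in PKM2 WT, a ratio of 0.563 with a log2 change of -0.81 (SE 0.060, limma adjusted p = 1.32e-06). Every vehicle library of Cat lay below every PKM2 WT library. Summed B cell markers (2 measured of 9) were at 5.56 to 7.12 RPKM with vehicle against 56.7 to 68.4 RPKM in PKM2 WT, and granulocyte, basophil and mast cell markers (5 of 10) at 7.30 to 25.9 RPKM against 120 to 297 RPKM. The part of such cells, and of those that express Itgax, in the values of this comparison was not tested.

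**Figure D3:**
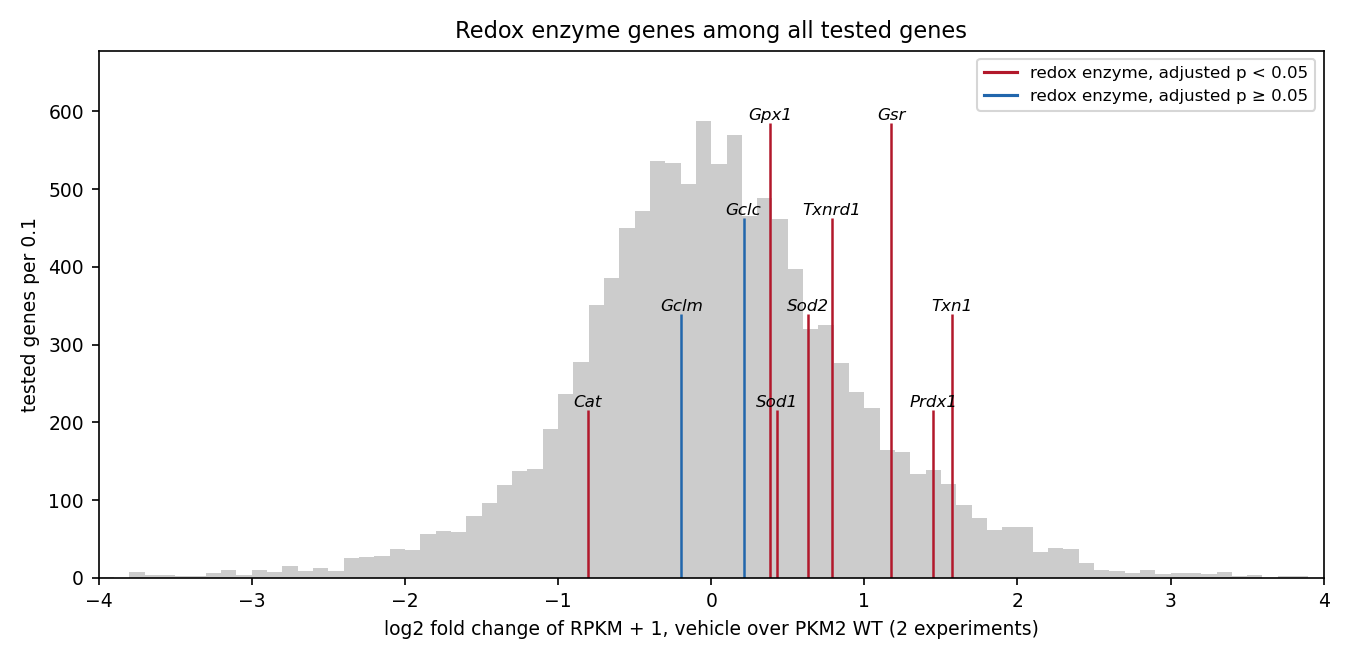
Histogram of the log2 fold change of vehicle over PKM2 WT for the 11142 tested genes (grey, 0.1 per bar, axis cut at -4 and 4, with 29 genes beyond it), with the 10 redox enzyme genes as labelled lines whose heights carry no value. Txn1 at 1.57 and Prdx1 at 1.45 lie in the right shoulder and Cat at -0.81 in the left.

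Ratios between partners, taken within each library, do not depend on the scaling of that library. The ratio of Gclc to Gclm was 1.88, 1.97 and 1.96 with TEPP-46, against 1.64, 1.69 and 1.38 with vehicle. These groups did not overlap, the mean log2 ratio differed by 0.31, and an exact two-sided permutation test gave p = 0.1, the smallest that 3 against 3 libraries allow. The same ratio was 1.14 and 1.22 in PKM2 KO, against 1.18, 1.12 and 1.15 in PKM2 WT, where the groups overlapped (exact permutation p = 0.5). Between vehicle and PKM2 WT it differed by 0.45 in log2, with no overlap (exact permutation p = 0.1). The ratio of Txnrd1 to Txn1 was 0.406, 0.351 and 0.386 with vehicle, against 0.564, 0.666 and 0.754 in PKM2 WT. It was lower in all 3 vehicle libraries than in any PKM2 WT library, by 0.79 in log2 (exact permutation p = 0.1). TEPP-46 libraries stood at 0.417, 0.336 and 0.414 and overlapped the vehicle libraries (exact permutation p = 0.8). In PKM2 KO that ratio was 0.788 and 0.740, which overlapped PKM2 WT (exact permutation p = 0.3). The ratio of Sod2 to Sod1 averaged 0.0399 ± 0.00375 with TEPP-46 and 0.0437 ± 0.00396 with vehicle (SD, n = 3 each) and these overlapped, whereas vehicle stood above the 0.0367 ± 0.000654 of PKM2 WT (SD, n = 3) in every library. These 9 tests were of 3 ratios in 3 comparisons, and none can pass an adjustment at the smallest p of 0.1.

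Much of the spread within the drug groups was shared by several of the genes. In both groups the library numbered 3 was the highest and the library numbered 2 the lowest for 6 of the 10 genes, Txnrd1, Gclc, Gclm, Gsr, Gpx1 and Sod2, a pattern that 19.9% of all tested genes had. Gclm spread the most, with vehicle replicate 3 at 0.39 and vehicle replicate 2 at -0.30 around the group mean in log2. Txn1, Prdx1, Sod1 and Cat did not follow that order. Rn7s1, Rn7s2 and Rn7sk, which lack a poly(A) tail, made up 34.2% of summed RPKM in TEPP-46 replicate 3 and 32.4% in vehicle replicate 3, the lowest shares of the 11 libraries, whose highest was 56.2%. Replicates 1 and 2 stood at 41% and 39.2% with TEPP-46, and at 40.1% and 42.0% with vehicle. Replicate 2 thus had the highest share of its group only with vehicle. The part of these RNAs in the spread was not tested.

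**Figure D4:**
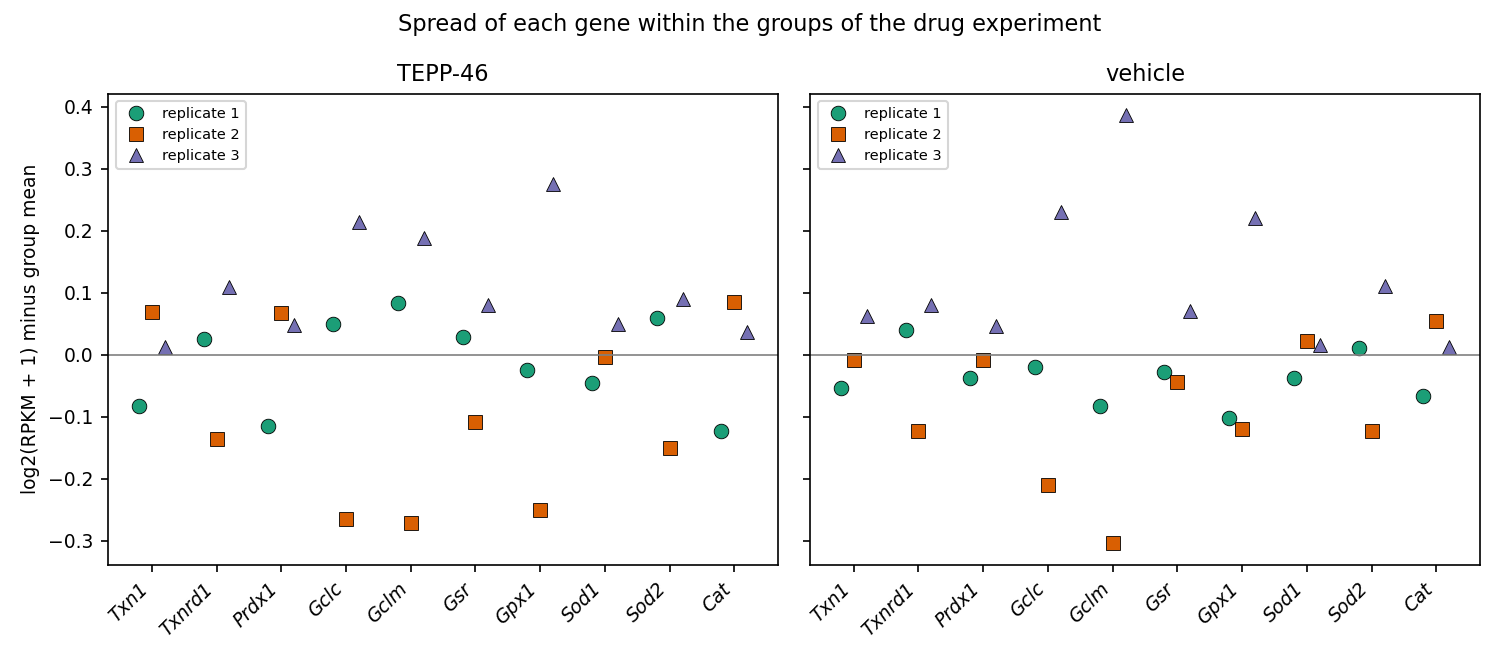
Deviation of each library from its group mean in log2(RPKM + 1) (vertical axis) for the 10 genes, in TEPP-46 (left) and vehicle (right); colour and shape give the replicate number. Replicate 3 of Gclm stands at 0.39 in vehicle and at 0.19 in TEPP-46.

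Wider lists of the same pathways gave 0 genes past the threshold in limma with TEPP-46, in PKM2 KO or for the difference of the effects. The lists held, beside the 10, tested genes of the thioredoxin and peroxiredoxin system (22), the glutathione system (21), superoxide and hydrogen peroxide metabolism (8), NRF2 targets (16), NRF2 regulators (14), NADPH supply (13), selenoproteins and their synthesis (21) and iron storage and uptake (11). With TEPP-46 the genes of smallest p in each list had limma adjusted p from 0.319 to 0.610. They were Txnrd2, the mitochondrial thioredoxin reductase (log2 fold change -0.27), Sesn3 (0.28), the glutathione peroxidase gene Gpx4 (0.23) and Gstp1 (-0.11). From the superoxide and NRF2 lists they were Rac2 (0.097), Ccs (-0.14), the ferritin heavy chain gene Fth1 (0.23), Srxn1 (0.17), Dpp3 (-0.12) and Sqstm1 (0.17), and from the NADPH and iron lists Mthfd2 (-0.23), Idh2 (-0.33) and Pcbp1 (-0.17).

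In PKM2 KO the genes of smallest p had limma adjusted p from 0.470 to 0.812. They were the transferrin receptor gene Tfrc (log2 fold change -0.46), Slc11a2 (0.23), Txnip, the inhibitor of thioredoxin (0.25), Prdx4 (-0.63), Glo1 (-0.17) and Gpx8 (-0.29). The other lists gave Rac1 (-0.11), Ncf4 (0.11), Srxn1 (0.20), Cbr1 (0.25), Bach1 (0.14), Mafg (0.15), Mthfd1 (-0.34), Me2 (-0.15), Selenon (0.14) and Selenos (-0.17). For the difference of the effects limma adjusted p ran from 0.413 to 0.908, for Fth1 (-0.31), Slc48a1 (-0.20), Prdx5 (-0.43), Prdx4 (-0.75), Gpx4 (-0.34), Glo1 (-0.18), Park7 (-0.12) and Rac2 (-0.11). The remaining genes named there were Nfe2l2, which encodes NRF2 (-0.21), Mafg (0.24), Idh2 (0.43), Mthfd2 (0.28), Trnau1ap (0.30) and Slc11a2 (0.28).

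NADPH supply genes had a median log2 fold change of -0.14 with TEPP-46, 11 of 13 below 0, against -0.020 over all tested genes, and none of these passed. This was the lowest median of the lists. Medians of the other lists ran from -0.092 (glutathione system, 16 of 21 below 0) to 0.044 (superoxide and hydrogen peroxide, 3 of 8 below 0). The share of all tested genes below 0 is not given here, so the counts are a description only.

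In vehicle against PKM2 WT the lists moved in both directions. Of the 22 other thioredoxin and peroxiredoxin genes 14 rose and 4 fell, against 38.6% and 36.7% of all tested genes, with a median log2 fold change of 0.45. Prdx4, the peroxiredoxin of the endoplasmic reticulum, rose by 2.41 and Nxn, nucleoredoxin, by 1.30. Txnip, which binds and inhibits thioredoxin, went the other way from Txn1, at -1.72, with 85.9, 105 and 85.0 RPKM in vehicle against 297, 293 and 325 RPKM in PKM2 WT, and Sesn1 was at -2.43. Of the 13 NADPH supply genes 8 rose and 1 fell. The folate enzymes Mthfd2 (3.13) and Mthfd1 (2.27) had the largest increases and the cytosolic isocitrate dehydrogenase gene Idh1 (-0.52) was the 1 that fell. All values in this and the next paragraph are log2 fold changes past the limma threshold, with the sign as vehicle over PKM2 WT.

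The counts below stand against 38.6% of all tested genes higher and 36.7% lower, and several are near those shares. The glutathione list divided evenly, with 7 of 21 higher and 7 lower. Slc3a2, the heavy chain partner of the cystine carrier, rose by 1.23 and Gsto1 by 0.95, while Mgst2 (-3.17) and Gstp3 (-1.90) fell. The gene of the cystine carrier itself, Slc7a11, was not among the genes analysed. Of the 16 other NRF2 targets 8 rose and 6 fell, so the list as a whole did not move one way. Heme oxygenase Hmox1 (1.76) and the ferritin light chain gene Ftl1 (1.34) rose, while the epoxide hydrolase gene Ephx1 (-2.08) and Blvrb (-1.18) fell. Among NRF2 regulators 6 of 14 rose and 5 fell, with Rbx1, a part of the ligase that degrades NRF2, at 1.04, Maff at 0.97, the repressor gene Bach2 at -2.93 and Sqstm1 at -0.89. Superoxide and peroxide genes other than Sod1, Sod2 and Cat were mostly lower, with 2 of 8 higher and 5 lower. The phagocyte oxidase subunit genes Ncf1 (-1.34) and Ncf4 (-1.27) fell, and Rac1 (0.28) and Park7 (0.22) rose. Of 21 selenoprotein genes 11 rose and 5 fell, with Selenoh at 1.64, Selenoi at 1.40, Selenop at -3.29 and Selenoo at -0.75. Of 11 iron genes 6 rose, Tfrc by 3.02 among them, and 0 fell.

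**Figure D5:**
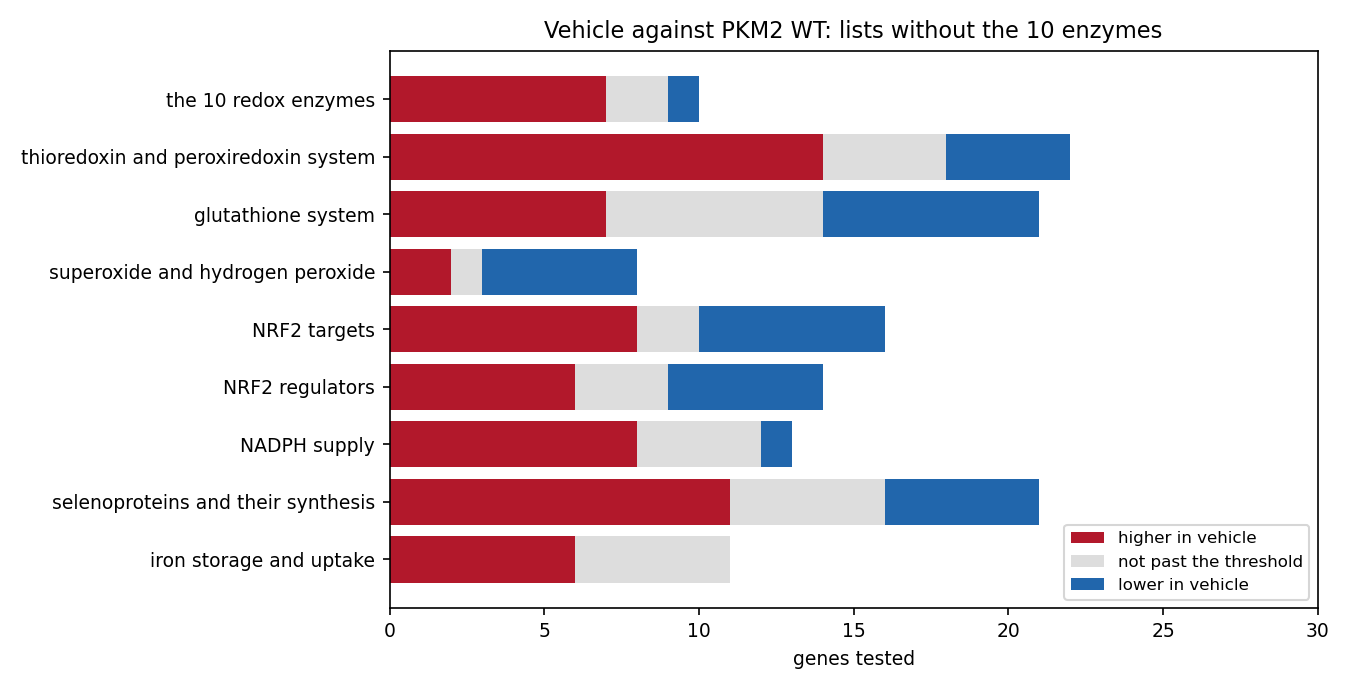
Number of tested genes (horizontal axis) of each list that were higher, not past the threshold, or lower in vehicle against PKM2 WT (limma adjusted p under 0.05), with the 10 enzymes as the top bar and left out of the lists below it, which share some genes. Thioredoxin system genes were higher in 14 of 22 and glutathione system genes were split at 7 and 7 of 21.

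The genes most alike to 9 of the enzymes across the 11 libraries were found by Pearson's r of log2(RPKM + 1) among 8733 genes averaging at least 5 RPKM. The libraries fall into the 2 experiments, which sets most of these values, so they are descriptions only. Txn1 was closest to Rnaseh2b (r = 0.998), Prdx1 to D030056L22Rik (0.999), Gsr to Tcp1 (0.998), Sod1 to Twsg1 (0.993), Sod2 to Isyna1 (0.996) and Cat to Gm2a (0.996). The closest genes to Gpx1, Gclc and Gclm were Cdc37 (0.976), Ints7 (0.959) and Hspa8 (0.951), lower values than for the 6 genes before them. Exons of Gclm overlap Gm17494 on the other strand and the pseudogene Gm6061 on the same strand, and Txn1 has a named pseudogene, Txn-ps1. How the authors counted reads over such pairs is not given here, so they could have been shared.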

How the data were processed

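RNA of 12 labelled NK cell samples in 4 groups was sequenced after, per the labels, poly(A) selection with a stranded kit, though the series names total RNA. Reads were aligned with STAR to mm10, per the submitters' processing notes. How reads were counted is not stated in these sources. The RPKM of 11706 genes were computed and deposited by the authors. The authors also deposited tables of the mean ratio between groups with its p-value; these are quoted only as the authors' values. Of the library columns 11 matched a sample; PKM2 KO replicate 3 was not analysed here, and 5 columns matched no sample and were not used.

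From RPKM, log2(RPKM + 1) was computed with no further scaling for the 11142 genes averaging at least 1 RPKM, so fold changes understate those of low genes. limma 3.58.1 (R 4.3.3, trended variance) tested TEPP-46 against vehicle and PKM2 KO against PKM2 WT within those libraries, and vehicle against PKM2 WT and the difference of the effects over group means of all 11 libraries, with Benjamini-Hochberg adjustment over all tested genes at 0.05. Intervals are limma 95% intervals. The code was tested on simulated data. Gene positions are from GENCODE M21 (GRCm38, the assembly of mm10). Read depth is unknown, since at most 9 of 76 to 133 short genes shared one ratio between libraries (tolerance 0.003 in natural log), so no counting interval is given. The labels call replicates biological without giving animals, so p-values reflect the spread among these libraries, part of which may be technical. Alternatives covered the pseudocount, filter, scaling, pooled spread, replicate block and leaving out each library.

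The 10 members and the lists were chosen with earlier results of these data known. Named beside the members are Pkm and Ncr1, of each list the 2 highest and 2 lowest fold changes among genes that passed (all, where 4 or fewer did) or the 2 of smallest p where none passed, and the gene of highest r for each member, of which 1 is not reported here. Ifng, Itgax, H2-Ab1, the T cell genes and, apart from Ncr1, the NK cell genes were chosen after their values were seen.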

Additional observations from a re-analysis of the deposited data

How the results depend on the processing

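Of the log2 fold changes of the 10 genes over all alternatives, 519 kept their direction and side of the threshold, 4 lost the call (Gpx1, vehicle against PKM2 WT), 1 gained it (Gclm in that comparison, without vehicle replicate 3) and 36 changed sign, all of them below the threshold before and after. For these the cause was not tested. In every alternative 0 of the 10 genes passed with TEPP-46, in PKM2 KO or for the difference of the effects.

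In PKM2 KO against PKM2 WT the 11 genes called became 7 with a pseudocount of 5, 25 with the spread taken from all libraries, and 5 to 21 when a library was left out (5 without PKM2 WT replicate 2, 21 without PKM2 KO replicate 2, where the lone library was assumed to vary like the others). In TEPP-46 against vehicle the 0 called became 1 with a pseudocount of 0.1, 1 after rescaling without Rn7s1, Rn7s2 and Rn7sk, and 0 to 3 when a library was left out. For the difference the 6 called became 10 with a pseudocount of 0.1 and 3 to 12 when a library was left out.

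Signs turned in PKM2 KO for Txnrd1 (0.005 rescaled, 0.005 with quantile normalization), Gpx1 (0.003 rescaled, 0.030 with quantile normalization) and Sod1 (0.046 with quantile normalization). They turned with TEPP-46 for Txnrd1 (0.008 rescaled, 0.007 with quantile normalization), and in the difference for Sod1 (0.012) and Sod2 (-0.007) with quantile normalization. Leaving out a library gave ranges across 0 in PKM2 KO for Txnrd1 (-0.054 to 0.024), Gclc (-0.073 to 0.039), Gclm (-0.113 to 0.001), Gpx1 (-0.068 to 0.011) and the log2 ratio of Gclc to Gclm (-0.004 to 0.090). With TEPP-46 it did so for Txnrd1 (-0.083 to 0.045), Prdx1 (-0.065 to 0.026), Gclc (-0.066 to 0.174) and the ratio of Txnrd1 to Txn1 (-0.033 to 0.128). In the difference it did so for Txnrd1 (-0.071 to 0.057), Gclc (-0.205 to 0.035), Gclm (-0.030 to 0.315), Sod2 (-0.070 to 0.067) and Cat (-0.080 to 0.024).

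Replicate numbers were used as a block in a further planned fit. Deviations of same-numbered TEPP-46 and vehicle libraries correlated with r = 0.052, 0.284 and 0.275 across genes, and each library correlated best with its own number, a hint from the data and not the design; in the genotype experiment r was 0.070 and -0.097. The replicate block called 3 genes with TEPP-46 and 0 in PKM2 KO, with 0 of the 10 among them, and turned the sign in PKM2 KO of Txnrd1 (0.024), Gclc (0.039) and Gclm (0.001). PKM2 WT replicate 3 has no same-numbered PKM2 KO library, so the block takes it out of this contrast. These values are therefore those found without that library, and the 36 changes of sign count them under both settings. Unknown read depth leaves the counting error of the lower genes, Gclc, Gclm and Sod2, unmeasured.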
